A study of Homo sapiens with 2 samples.

Results

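The genes described are 8 that code for mechanosensitive channels and the G proteins linked to them in endothelial cells: PIEZO1, TRPV4, PKD1, PKD2, KCNJ2, P2RX4, GNAQ and GNA11. They were chosen by symbol from the 36601 genes in the files, and all 8 reached 100 UMIs (unique molecular identifiers, the tags by which RNA molecules are counted) over both libraries, as did 11043 genes in all. All cells were HUVECs, primary endothelial cells of the human umbilical vein, which had lined the 50 µm channels of a microfluidic device over about 48 hours of growth under flow of medium. In the 5% pdRBC group the lining was perfused for 4 hours with red blood cells of which 5% were pharmacologically dehydrated (pdRBC). Nystatin and sucrose washes had brought their hemoglobin to 40 to 42 g/dL of cell volume, a model of the stiff red cells of sickle cell disease and not patient cells. In the hRBC group it was perfused for the same 4 hours with healthy red blood cells alone. Either group was read as a single 5′ library of the cells washed out of the device, after lysis of red cells, and the labels name no further cultures. There is therefore no replicate check and no test between the groups: intervals cover counting error only and hold neither the spread between cultures nor that between cells.

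Endothelial cells sense flow and stretch at their membrane. PIEZO1 is a cation channel that membrane tension opens, TRPV4 a calcium-permeable channel that responds to stretch, swelling and lipid messengers, and PKD2 (polycystin-2) a cation channel that works with the large membrane protein PKD1 (polycystin-1), both known from primary cilia. P2RX4 is a calcium-permeable channel gated by extracellular ATP, which endothelial cells release under shear, and KCNJ2 codes for the inward rectifier potassium channel Kir2.1, whose current is sensitive to flow and sets the membrane potential. GNAQ and GNA11 are the closely related alpha subunits of Gq and G11, which pass signals from receptors to phospholipase C and intracellular calcium. Calcium entry and Gq signalling are among the inputs that induce immediate early genes such as EGR1 and FOS, transcription factor genes switched on within minutes of a stimulus without new protein synthesis.

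After the cell filter the 5% pdRBC library held 1601 cells with a median of 9566 UMIs, and the hRBC library 2555 cells with a median of 2175 UMIs, for sums of 16127985 and 13335148 UMIs. A level in CPM is a gene's UMIs per 1000000 UMIs of such a sum. The libraries thus differ in depth per cell, and shares of cells with a UMI are compared only after each cell was thinned to the same number of UMIs. All 11 endothelial markers were measured, that is, had 100 or more UMIs over both libraries, with a summed level of 3998 CPM in 5% pdRBC cells and 4222 CPM in hRBC cells. None of the 10 erythroid, 12 leukocyte or 5 platelet markers was measured, with summed levels of 0.0620, 0.930 and 0.682 CPM in 5% pdRBC cells and 0.90, 0.450 and 0.675 CPM in hRBC cells. Of 9 fibroblast and mural markers 3 were measured, with a summed level of 347 CPM with 5% pdRBC and 394 CPM with hRBC. RGS5 held 328 and 369 CPM of that. Of 6 epithelial markers 2 were measured, with summed levels of 112 and 154 CPM, and KRT18 stood at 93.2 and 133 CPM. Of 4 lymphatic markers 1 was measured, with summed levels of 13.6 and 10.3 CPM. Of the 9 cycling markers 8 were at least 1.5-fold lower with 5% pdRBC, as were 1.1% of all measured genes. The summed level of these 9 markers was 126 CPM in 5% pdRBC cells and 192 CPM in hRBC cells. Of the 10 erythroid genes 8 had no UMI in either library. The libraries shared 9 cell barcodes, 6 of them among kept cells.

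PIEZO1 and KCNJ2 are the members that differed most between the libraries. The 250 bases before their RefSeq transcription starts are shown for that reason. As described further on, the interval of the fold left out equality for PIEZO1 in cells low in immediate early genes. For KCNJ2 it did so in cells high in them, and the difference between these cells was not tested. Capitals mark TATA boxes (TATAAA) and GC boxes (GGGCGG), sought on both strands, and sequences are given 5′ to 3′ on the gene's strand in GRCh38.p14.
PIEZO1, chr16:88785221-88785470, minus strand: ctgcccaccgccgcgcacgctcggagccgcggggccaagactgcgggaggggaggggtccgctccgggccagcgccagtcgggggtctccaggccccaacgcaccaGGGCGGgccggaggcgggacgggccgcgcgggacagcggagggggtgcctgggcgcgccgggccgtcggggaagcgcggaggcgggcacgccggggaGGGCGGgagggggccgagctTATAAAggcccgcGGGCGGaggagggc
KCNJ2, chr17:70169282-70169531, plus strand: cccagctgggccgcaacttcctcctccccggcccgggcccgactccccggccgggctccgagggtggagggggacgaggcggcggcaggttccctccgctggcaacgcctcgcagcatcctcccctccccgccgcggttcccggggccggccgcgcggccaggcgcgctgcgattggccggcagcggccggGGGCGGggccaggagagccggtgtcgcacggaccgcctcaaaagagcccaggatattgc
PIEZO1 has 1 TATA box, whose last base lies 22 bases before the start, and 3 GC boxes. KCNJ2 has 1 GC box and no TATA box. Of 27305 windows of the same length, 11.1% hold a TATA box and 42.3% a GC box. The RefSeq table held windows for 6 of the 8 members, and PKD1, PKD2, P2RX4 and GNA11 had 8, 3, 3 and 7 GC boxes and no TATA box. None of the 6 windows holds the AP-1 site TGANTCA (6.60% of all windows), the CRE TGACGTCA (1.77%), the EGR site GCGTGGGCG (0.710%) or a CArG box (1.14%), sites that bind immediate early factors or the factors that switch on their genes. This says only that these letters are not in these windows. The 6 windows are rich in G and C, at 76.0% to 81.2%, against a median of 58.0% over all windows.

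Between the libraries the members differed little, apart from KCNJ2 and PIEZO1. With 5% pdRBC, 2 of 8 members were at least 1.2-fold higher, as were 10.4% of all measured genes, and 0 were at least 1.2-fold lower, as were 7.43% of all. At least 1.5-fold, 1 member was higher (1.55% of all measured genes) and 0 lower (1.1%). The median log2 fold of the members was 0.15, beside 0.02 over all measured genes. For PIEZO1, KCNJ2 and GNA11 the counting interval of the fold left out equality. The share of all measured genes with such an interval was not counted, so this has no background. With 8 genes, a count of 2 beside a background of 10.4% is given as a description of these genes only.

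**Figure D1:**
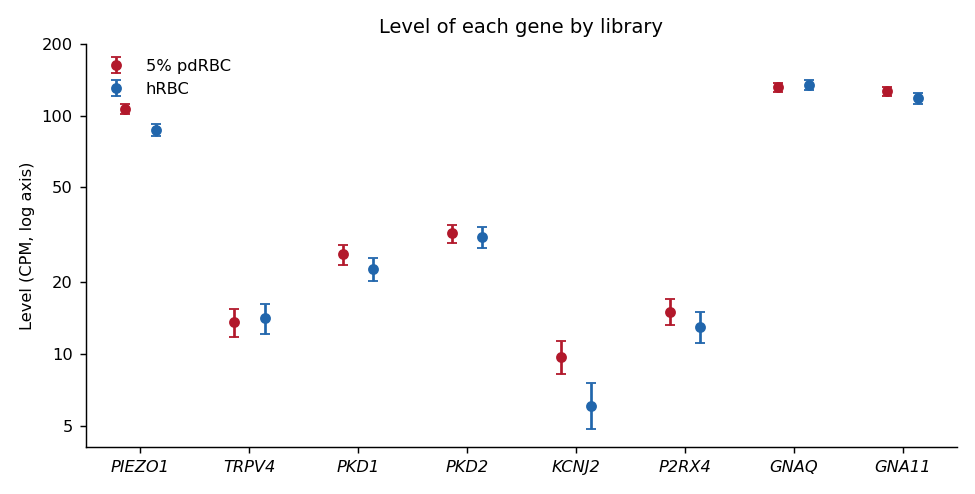
Level of each gene in CPM (log axis) over all kept cells, for the 5% pdRBC library (red) and the hRBC library (blue). Points are 1 library each and bars are exact Poisson 95% intervals, which cover counting error only. The intervals of the 2 libraries are apart for PIEZO1 and KCNJ2 and overlap for the other 6 genes.

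Among the calcium-permeable channels, PIEZO1 stood at 107 CPM (exact Poisson 95% interval 102 to 112) in 5% pdRBC cells and 87.4 CPM (82.5 to 92.6) in hRBC cells, on 1723 and 1166 UMIs. It was 1.22-fold (1.13 to 1.32) higher with 5% pdRBC, at percentile 91.3 of the log2 folds of all measured genes. PIEZO1 lies on chromosome 16 from 88715338 to 88785220 (minus strand), and overlaps CTU2 on the opposite strand, which had a log2 fold of -0.39 (-0.63 to -0.14). TRPV4 stood at 13.6 CPM (11.8 to 15.5) in 5% pdRBC cells and 14.1 CPM (12.2 to 16.3) in hRBC cells, with a log2 fold of -0.05 (-0.34 to 0.23). A difference in TRPV4 was not detectable at this depth, with 219 and 188 UMIs. P2RX4 had 243 UMIs in 5% pdRBC cells and 173 in hRBC cells, or 15.1 CPM (13.2 to 17.1) and 13.0 CPM (11.1 to 15.1). Its log2 fold was 0.21 (-0.07 to 0.51), an interval that holds equality.

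The polycystin pair lay between these. PKD1 stood at 26.2 CPM (23.7 to 28.8) in 5% pdRBC cells and 22.6 CPM (20.2 to 25.4) in hRBC cells, a log2 fold of 0.21 (-0.01 to 0.43). PKD2 stood at 32.1 CPM (29.4 to 34.9) in 5% pdRBC cells and 30.9 CPM (28.0 to 34.0) in hRBC cells, a log2 fold of 0.05 (-0.14 to 0.24). Both intervals hold equality. The genome holds near-identical copies of much of PKD1, and how reads shared with them were counted is not given in the sources used here, so the level of PKD1 is uncertain. PKD1 and TSC2, which code on opposite strands, also overlap in the annotation, and TSC2 had a log2 fold of 0.01 (-0.18 to 0.20).

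KCNJ2 was the member with the largest difference. It stood at 9.67 CPM (8.21 to 11.3) in 5% pdRBC cells and 6.07 CPM (4.82 to 7.55) in hRBC cells, on 156 and 81 UMIs. It was 1.59-fold (1.21 to 2.11) higher with 5% pdRBC, at percentile 99.05 of all measured genes. These UMIs lay in 105 of 1601 5% pdRBC cells and 72 of 2555 hRBC cells before thinning, with at most 7 and 4 UMIs in a cell. KCNJ2-AS1, a noncoding RNA on the opposite strand that overlaps the KCNJ2 locus, had 78 UMIs in 5% pdRBC cells and 43 in hRBC cells, a log2 fold of 0.58 (0.03 to 1.16). Whether the counting used strand is not given in the sources used here, and without it reads of the pair cannot be told apart. In GRCh38, GENCODE 29 places KCNJ2 on chromosome 17 from 70168673 to 70180048 (plus strand). The window of 250 bases shown above begins 609 bases inside the KCNJ2 gene as GENCODE draws it, since the RefSeq start used for the window lies further downstream.

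The Gq class subunits were close to level. GNAQ stood at 132 CPM (126 to 137) in 5% pdRBC cells and 135 CPM (129 to 141) in hRBC cells, a log2 fold of -0.03 (-0.13 to 0.06). GNA11 stood at 127 CPM (121 to 132) in 5% pdRBC cells and 118 CPM (112 to 124) in hRBC cells, a log2 fold of 0.10 (0.00440 to 0.20). The interval of GNAQ holds equality and that of GNA11 leaves it out narrowly. A difference of 1.2-fold in either direction lies outside the counting interval of both genes.

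**Figure D2:**
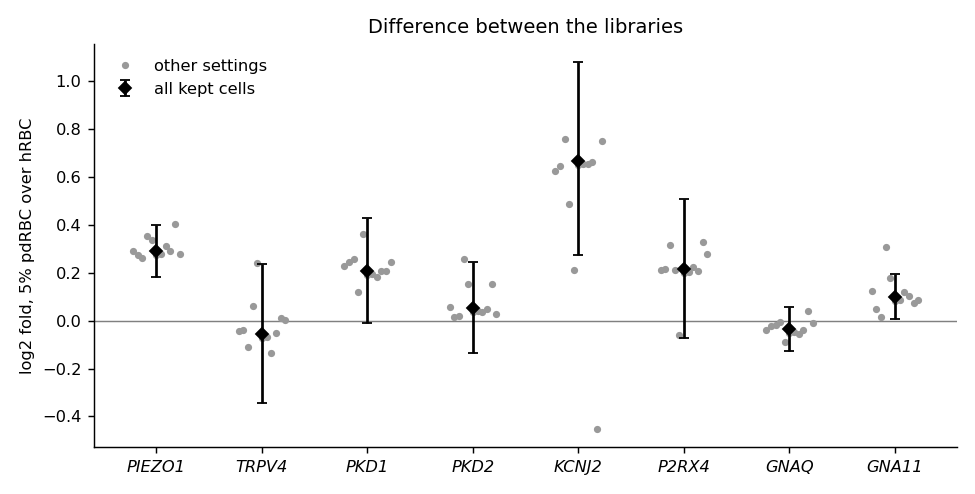
The log2 fold of each gene, 5% pdRBC over hRBC. Black diamonds with 95% counting intervals are the values over all kept cells and grey points those under the other settings of cell choice, cell weight and scaling. PIEZO1, PKD1, PKD2 and GNA11 lie above 0 in all 12 settings, and the grey KCNJ2 point at -0.45 is the setting without the cells highest in immediate early genes.

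At equal depth PIEZO1 was found in a larger share of 5% pdRBC cells, and the shares of cells with KCNJ2 differed within counting error. After thinning to 2000 UMIs, 1557 5% pdRBC cells and 1375 hRBC cells could be compared, and 44 and 1180 shallower cells were left out. PIEZO1 had a UMI in 20.1% (exact binomial 95% interval 18.1 to 22.2) of the 5% pdRBC cells and 15.5% (13.6 to 17.5) of the hRBC cells, against 63.1% and 44.7% of the same cells before thinning. Over all kept cells, the shallower ones included, these shares were 62.0% and 29.3%. Its thinned level was 110 CPM in 5% pdRBC cells and 87.3 CPM in hRBC cells. KCNJ2 had a UMI in 1.73% (1.15 to 2.51) of 5% pdRBC cells and 1.60% (1.01 to 2.41) of hRBC cells, that is, in 27 and 22 cells. The intervals of the shares do not overlap for PIEZO1 and overlap for KCNJ2. The thinned cells held 29 and 22 KCNJ2 molecules, and the share expected over all draws was 1.56% in 5% pdRBC cells and 1.29% in hRBC cells, a log2 ratio of 0.27 beside the log2 fold of 0.67 in the sums. At 5000 UMIs, with 1370 and 769 cells left, PIEZO1 had a UMI in 42.1% (39.5 to 44.8) of 5% pdRBC cells and 36.8% (33.4 to 40.3) of hRBC cells, and KCNJ2 in 4.16% (3.17 to 5.36) and 2.99% (1.91 to 4.45), with overlapping intervals for both.

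Detection of the other members differed within counting error. GNAQ had a UMI in 23.2% (21.2 to 25.4) of 5% pdRBC cells and 24.4% (22.2 to 26.8) of hRBC cells, and GNA11 in 21.9% (19.9 to 24.0) and 19.4% (17.4 to 21.6). PKD2 was detected in 7.51% (6.25 to 8.94) of 5% pdRBC cells and 6.98% (5.69 to 8.46) of hRBC cells, and PKD1 in 5.52% (4.44 to 6.78) and 4.36% (3.35 to 5.58). TRPV4 was detected in 2.38% (1.68 to 3.26) of 5% pdRBC cells and 2.11% (1.42 to 3.02) of hRBC cells, and P2RX4 in 2.44% (1.73 to 3.33) and 2.55% (1.78 to 3.52). The pairs of intervals overlap for all 6 genes. No cell type that should lack these genes was captured, so free RNA of the endothelial cells themselves could not be set apart. HBB, a red cell gene, was seen in 0 of 1557 thinned 5% pdRBC cells, which allows a share of up to 0.193%, and in 2 of 1375 hRBC cells.

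**Figure D3:**
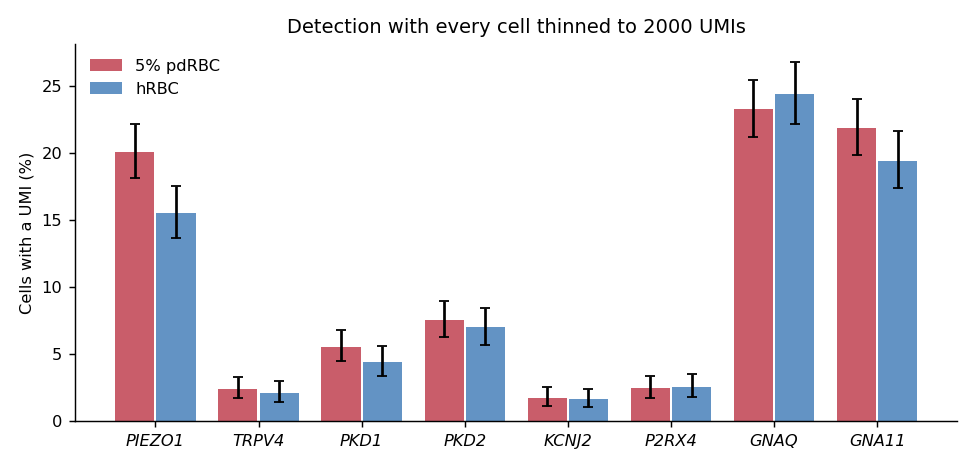
Share of cells with at least 1 UMI of each gene after every cell was thinned to 2000 UMIs, in the 5% pdRBC library (red) and the hRBC library (blue). Bars start at 0 and error bars are exact binomial 95% intervals, which cover counting error only. The intervals are apart for PIEZO1, at 20.1% and 15.5%, and overlap for the other 7 genes.

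Across the range of depth PIEZO1 kept its direction. Cells of 10000 or more UMIs, 726 with 5% pdRBC and 538 with hRBC, had PIEZO1 at 101 and 86.7 CPM, a log2 fold of 0.22 (0.08 to 0.36). Those of 5000 to under 10000 UMIs had 116 CPM in 644 5% pdRBC cells and 97.3 CPM in 231 hRBC cells, a log2 fold of 0.25 (0.01 to 0.51). In cells of 2000 to under 5000 UMIs PIEZO1 stood at 122 CPM with 5% pdRBC and 83.9 CPM with hRBC, and the log2 fold was 0.54 (0.13 to 0.94). PIEZO1 was thus higher with 5% pdRBC in each of these depth ranges, and in the shallowest (1000 to under 2000 UMIs) the log2 fold of 0.86 (-0.30 to 1.72) rests on 44 5% pdRBC cells with 10 UMIs. KCNJ2 had no such common direction. In cells of 10000 or more UMIs it stood at 11.8 CPM with 5% pdRBC and 5.76 CPM with hRBC, a log2 fold of 1.02 (0.54 to 1.55), and in cells of 5000 to under 10000 UMIs at 6.14 and 6.23 CPM, a log2 fold of -0.06 (-1.05 to 1.12). In cells of 2000 to under 5000 UMIs KCNJ2 had 2 UMIs with 5% pdRBC and 14 with hRBC, a log2 fold of -1.09 (-4.54 to 0.76), and in the shallowest 1 and 9 UMIs, a log2 fold of 1.93 (-4.03 to 4.27). Only the interval of the deepest range leaves out equality. Of its 156 UMIs in 5% pdRBC cells, 122 lay in the deepest range.

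The second question is how the members relate to immediate early genes within each library. Cells thinned to 2000 UMIs were put in 4 classes by their UMIs of 15 immediate early genes, among them EGR1, FOS, FOSB, JUN, ATF3, IER2, ZFP36 and DUSP1. The cuts, at the quartiles over both libraries, gave classes of 0, 1, 2 and 3 or more UMIs. With 5% pdRBC they held 505, 425, 208 and 419 cells, and with hRBC 500, 429, 228 and 218 cells. Such a class is a range of a score and no cell type: 208 5% pdRBC cells and 228 hRBC cells lay 1 UMI below the highest class. The summed level of the 15 genes was 3095 CPM in the highest class and 338 CPM in the lowest with 5% pdRBC, and 1744 CPM and 315 CPM with hRBC. The highest class was thus higher in these genes in the 5% pdRBC library. Median depth in the highest and lowest class was 10674 and 9199 UMIs with 5% pdRBC, and 6161.5 and 7890.5 UMIs with hRBC. The part of depth in the relations below was not tested.

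KCNJ2 followed the immediate early genes in the 5% pdRBC library. In 5% pdRBC cells it stood at 22.8 CPM (18.7 to 27.5) in the highest class, against 3.66 CPM (2.17 to 5.78) in the lowest, on 108 and 18 UMIs. That is 6.09-fold (3.76 to 10.9) higher, at percentile 99.8 of the 8514 genes measured in this contrast. In hRBC cells KCNJ2 stood at 8.05 CPM (4.40 to 13.5) in the highest class and 6.05 CPM (3.99 to 8.81) in the lowest, on 14 and 27 UMIs, a log2 fold of 0.43 (-0.63 to 1.39). The intervals of the log2 fold in the 2 libraries, 1.91 to 3.45 with 5% pdRBC and -0.63 to 1.39 with hRBC, do not overlap. The difference between the libraries in this relation was not tested. The highest class held 69.2% of the KCNJ2 UMIs of the 5% pdRBC library, in 61 of its 419 cells, and 17.3% of those of the hRBC library, in 10 of its 218 cells.

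Within the highest class the level of KCNJ2 was graded in 5% pdRBC cells. It was 7.43 CPM (4.16 to 12.3) in 182 cells with 3 to 4 immediate early UMIs, 22.2 CPM (14.7 to 32.3) in 110 cells with 5 to 7, and 43.7 CPM (33.8 to 55.6) in 127 cells with 8 or more. Median depth in these 3 groups was 10646, 10432 and 11202 UMIs. None of the 3 intervals overlaps another. In hRBC cells the same ranges held 157, 43 and 18 cells and 7, 6 and 1 KCNJ2 UMIs, too few to show a gradient. KCNJ2 stood there at 6.18 CPM (2.49 to 12.7), 14.98 CPM (5.497 to 32.6) and 4.82 CPM (0.122 to 26.9). In cells with 3 to 4 and with 5 to 7 immediate early UMIs, the intervals of the libraries overlap. With 8 or more they do not, where the hRBC level rests on 1 UMI. The difference between the libraries within these ranges was not tested. These finer ranges were chosen after the classes had been seen.

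In the 5% pdRBC library KCNJ2 was also read beside single immediate early genes. These splits are of the same cells and hold no other gene fixed. They therefore cannot tell whether KCNJ2 ran with 1 of these genes or with several. For each of the 11 immediate early genes found in at least 50 thinned cells there, cells with a UMI of it had more KCNJ2 than cells without, by 2.38-fold for FOSL2 to 5.44-fold for FOSB, and all 11 counting intervals left out equality. With EGR1 the level was 34.2 CPM in 149 cells with a UMI, against 6.58 CPM in 1408 without. With FOS it was 27.1 CPM in 178 cells with a UMI, against 7.33 CPM in 1379 without. In the hRBC library 9 immediate early genes could be read this way, EGR1 and ZFP36 not among them. Cells with a UMI of the gene held 4 to 18 KCNJ2 UMIs. Folds (0.5 UMIs added) were above 1 for 7 of the 9 genes, and ran from 0.485 for IER2 to 2.45 for FOSB. For ATF3, 1 of the 7, the levels themselves were 6.15 CPM with a UMI of it and 6.16 CPM without. There 8 of the 9 intervals held equality, and that of IER2, on 8 KCNJ2 UMIs in cells with it, lay below. KCNJ2-AS1 in 5% pdRBC cells stood at 9.49 CPM in the highest class and 3.25 CPM in the lowest, on 45 and 16 UMIs. Across cells, which share a library and depth, Pearson's r between KCNJ2 and immediate early UMIs was 0.20 over 1557 5% pdRBC cells and 0.03 over 1375 hRBC cells, and Spearman's rho was 0.09 and 0.02.

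The other members did not follow KCNJ2. With 5% pdRBC, 1 of 8 members was at least 1.2-fold higher in the highest class (17.8% of measured genes) and 4 were at least 1.2-fold lower (18.4%). At least 1.5-fold, 1 was higher (5.3% of measured genes) and 0 were lower (3.28%). With hRBC, 5 members had the 100 UMIs in this contrast, and 0 of them was 1.2-fold higher (19.9% of measured genes) or lower (12%). Nor was any of the 5 at least 1.5-fold higher (3.9%) or lower (1.4%). The measured members had a median log2 fold of -0.26 with 5% pdRBC and -0.14 with hRBC, beside -0.01 and 0.03 over all measured genes.

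PIEZO1, GNAQ and PKD2 were lower in the highest class with 5% pdRBC, by intervals that leave out equality. In 5% pdRBC cells PIEZO1 stood at 90.7 CPM (82.3 to 99.7) in the highest immediate early class, against 112 CPM (102 to 121) in the lowest, which is 1.23-fold (1.08 to 1.40) lower. In hRBC cells it stood at 97.1 CPM (83.0 to 113) in the highest class, against 83.9 CPM (75.6 to 92.8) in the lowest, a log2 fold of 0.21 (-0.06 to 0.48). GNAQ was 1.22-fold (1.09 to 1.37) lower in the highest class with 5% pdRBC, at 116 CPM against 142 CPM, and had a log2 fold of 0.18 (-0.05 to 0.40) with hRBC. PKD2 stood at 24.7 CPM (20.4 to 29.6) in the highest class and 32.7 CPM (27.9 to 38.2) in the lowest with 5% pdRBC, which is 1.32-fold (1.04 to 1.70) lower. With hRBC its log2 fold was -0.17 (-0.70 to 0.31). TRPV4, at 11.8 CPM in the highest class and 15.2 CPM in the lowest with 5% pdRBC, had a log2 fold of -0.37 (-0.89 to 0.15).

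PKD1, P2RX4 and GNA11 did not differ beyond counting error between the highest and the lowest class in either library. With 5% pdRBC their log2 folds were -0.02 (-0.39 to 0.35), -0.22 (-0.73 to 0.28) and 0.12 (-0.05 to 0.28), and with hRBC -0.15 (-0.74 to 0.39), 0.46 (-0.30 to 1.16) and -0.14 (-0.38 to 0.10). GNA11 had levels, in cells high and low in immediate early genes, of 129 and 119 CPM with 5% pdRBC and of 110 and 122 CPM with hRBC.

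**Figure D4:**
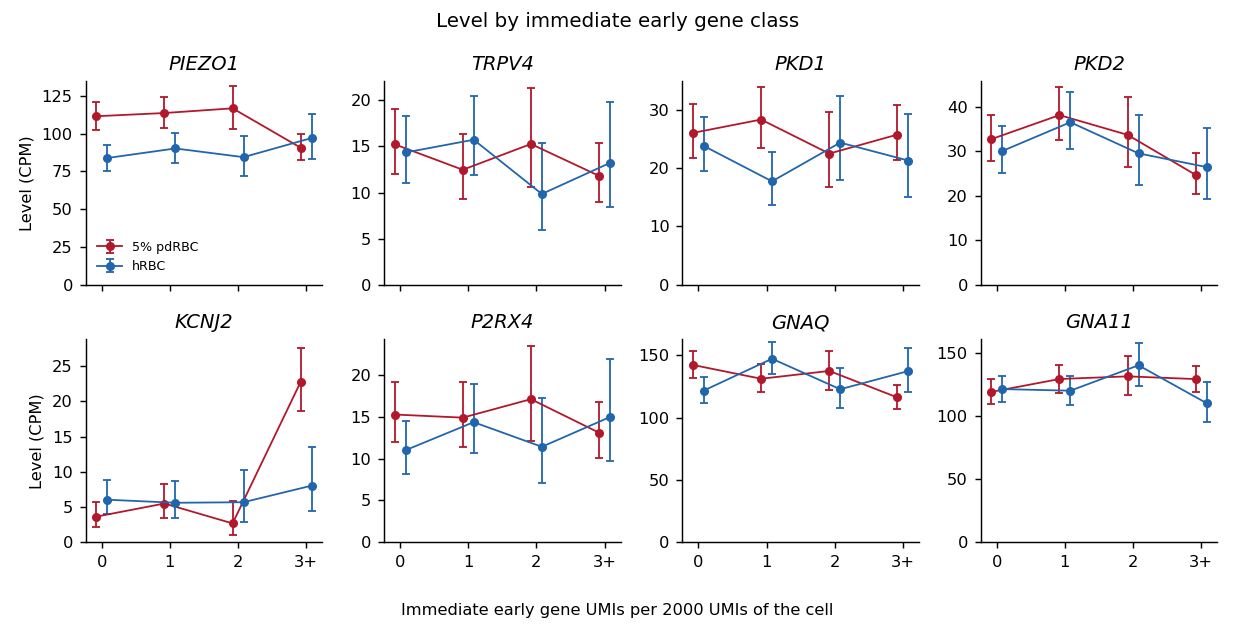
Level of each gene in CPM by class of immediate early gene UMIs per cell thinned to 2000 UMIs (0, 1, 2, and 3 or more), for the 5% pdRBC library (red) and the hRBC library (blue), with exact Poisson 95% intervals. KCNJ2 in 5% pdRBC cells reaches 22.8 CPM in the highest class and stays under 6 CPM in the other classes. PIEZO1 in 5% pdRBC cells lies above hRBC cells in the 3 lower classes and not in the highest.

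By class, the interval of the fold between the libraries left out equality in different cells for PIEZO1 and KCNJ2. The difference between classes was not tested. In cells with no immediate early UMI PIEZO1 stood at 112 CPM with 5% pdRBC and 83.9 CPM with hRBC, a log2 fold of 0.41 (0.22 to 0.61). With 1 UMI the log2 fold was 0.33 (0.13 to 0.54) and with 2 UMIs 0.47 (0.18 to 0.76), and in the highest class it was -0.10 (-0.36 to 0.17). Over the classes with fewer than 3 UMIs the intervals of PIEZO1 left out equality, and in the highest class its levels of 90.7 and 97.1 CPM did not differ beyond counting error. KCNJ2 had log2 folds of -0.71 (-1.67 to 0.19), -0.03 (-0.96 to 0.91) and -1.03 (-2.80 to 0.48) in the 3 lower classes and 1.46 (0.69 to 2.42) in the highest, at 22.8 CPM with 5% pdRBC and 8.05 CPM with hRBC. Without the cells of the highest class the log2 fold of KCNJ2 over the other kept cells was -0.45, against 0.67 with them. The value of -0.45 has no interval. Cells under 2000 UMIs, 44 with 5% pdRBC and 1180 with hRBC, were not classed and stayed in whatever their immediate early level. Since the highest class is further up in immediate early genes with 5% pdRBC than with hRBC, the 2 libraries are not matched within it. Of the other members, GNAQ had a log2 fold of 0.22 (0.06 to 0.39) between the libraries in the lowest class and -0.24 (-0.46 to -0.02) in the highest, and PKD1 had 0.67 (0.22 to 1.14) in the class with 1 UMI. The remaining intervals of PKD1 and GNAQ, and all those of TRPV4, PKD2, P2RX4 and GNA11 within classes, hold equality.

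Across clusters, built without the 8 members, KCNJ2 in 5% pdRBC cells was higher in the cluster that EGR1 helps to lead than in 3 of the other 4 large clusters. This cluster 0, led by AC012574.1, CHRNA7, GEM, EGR1 and STC1 among others, held 527 5% pdRBC and 341 hRBC cells, and its cells are no separate evidence, since immediate early genes took part in the clustering. KCNJ2 stood there at 19.8 CPM (16.4 to 23.7) with 5% pdRBC and 8.35 CPM (5.71 to 11.8) with hRBC. In cluster 1, led by MGP and FABP4, in cluster 3, which holds cycling cells led by CDK1, UBE2C and TOP2A among others, and in cluster 5, led by LINC02109, DHRS3 and GJA5, KCNJ2 stood at 2.12, 2.61 and 3.49 CPM with 5% pdRBC and at 3.00, 3.03 and 5.33 CPM with hRBC. In 5% pdRBC cells the interval in cluster 0 lies above those in these 3 clusters, whose own intervals overlap. Cluster 6, led by ANK2, had KCNJ2 at 11.3 CPM (3.08 to 28.9) with 5% pdRBC, on 4 UMIs, and at 8.33 CPM (4.94 to 13.2) with hRBC, intervals that overlap those of cluster 0 in the same library. In clusters 0, 1, 3, 5 and 6 each of the 11 endothelial markers had UMIs.

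PIEZO1 varied less between clusters than KCNJ2. With 5% pdRBC it stood at 97.1 CPM in cluster 0, 93.3 in cluster 1, 114 in cluster 3 and 118 in cluster 5, and with hRBC at 89.7, 62.3, 98.1 and 93.1 CPM in the same order. The log2 fold between the libraries was 0.58 (0.22 to 0.95) in cluster 1 and 0.34 (0.14 to 0.54) in cluster 5, and in clusters 0 and 3 it was 0.11 (-0.08 to 0.31) and 0.22 (-0.08 to 0.52). TRPV4 with 5% pdRBC stood at 9.40 CPM (7.12 to 12.2) in cluster 0 and 18.0 CPM (14.7 to 21.8) in cluster 5, intervals that do not overlap, and with hRBC at 12.8 CPM (9.45 to 16.9) and 17.2 CPM (13.0 to 22.4), which do. GNAQ was lower in cluster 0 with 5% pdRBC, at 114 CPM against 144 CPM with hRBC (log2 fold -0.34 (-0.50 to -0.17)), and higher in cluster 5, at 156 against 136 CPM (0.20 (0.03 to 0.36)). In cluster 6 GNAQ stood at 93.3 CPM with 5% pdRBC and 146 CPM with hRBC, a log2 fold of -0.63 (-1.21 to -0.12). PKD2 had log2 folds of -0.47 (-0.81 to -0.12) in cluster 0 and 0.36 (0.01 to 0.73) in cluster 5. GNA11 stood highest, among the 5 clusters with over 200000 UMIs in each library, in the cycling cluster 3, at 163 CPM (143 to 184) with 5% pdRBC and 147 CPM (131 to 165) with hRBC, and at 97.6 and 104 CPM in cluster 1.

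**Figure D5:**
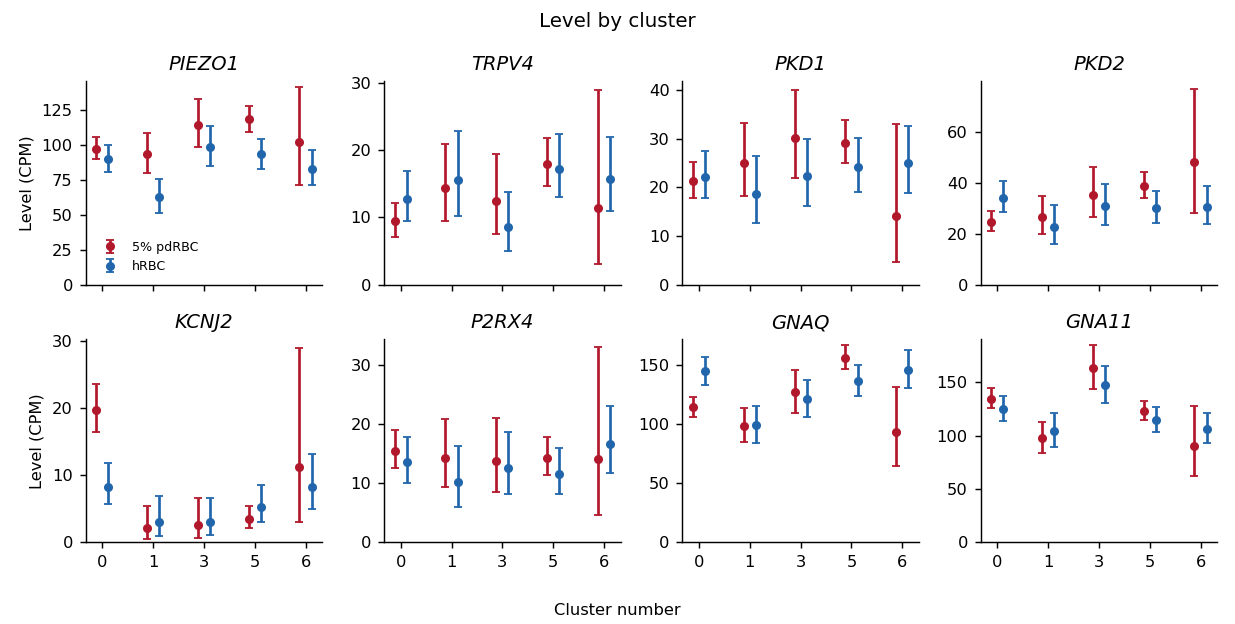
Level of each gene in CPM in the 5 clusters with at least 200000 UMIs in each library, for the 5% pdRBC library (red) and the hRBC library (blue), with exact Poisson 95% intervals. Cluster 0 is led by AC012574.1 and EGR1 among others, cluster 1 by MGP, cluster 3 by cycling genes, cluster 5 by LINC02109, and cluster 6 by ANK2 with a median of 1527 UMIs per cell. KCNJ2 in 5% pdRBC cells stands at 19.8 CPM in cluster 0.

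The genes whose levels ran most like those of a member were sought over the 11 cluster and library groups with at least 200000 UMIs, which share libraries and differ in depth. For the 5 members with at least 500 UMIs, Spearman's rho over these 11 points is a description. For PIEZO1 it was highest with FAM43A and NUDCD3 (0.92 for both) and MAD2L2 (0.86). For PKD1 it was highest with TGFBR2 (0.97), CAND1 (0.94) and OSBPL9 (0.93), and for PKD2 with DNAJC10 (0.85), C20orf27 (0.85) and PYGB (0.85). For GNAQ the genes were USP3 (0.96), ZZEF1 (0.95) and WASHC4 (0.94), and for GNA11 EIF3A (0.95), PPP4R3A (0.95) and CEP350 (0.95). Over the 4638 genes searched, 95% had a rho of at most 0.54 for PKD2 to at most 0.77 for GNA11.

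Of 97 measured genes in 8 other lists of these pathways, 10 were at least 1.2-fold higher with 5% pdRBC and 6 lower, or 10.3% and 6.19%, close to the 10.4% and 7.43% of all measured genes. Among 27 other mechanosensitive or flow-linked channels 10 were measured, and PANX1, a pore that releases ATP, was the 1 gene at least 1.2-fold higher with 5% pdRBC, at 16.2 against 13.3 CPM, while 0 were lower. PIEZO2, the other Piezo channel, stood at 30.9 CPM with 5% pdRBC and 30.8 CPM with hRBC. Of 20 purinergic and flow-linked receptor genes and enzymes 10 were measured. ENTPD1, an enzyme that breaks down extracellular ATP, was higher with 5% pdRBC, with a log2 fold of 0.58 (0.20 to 0.98), and the ADP receptor gene P2RY1 and the histamine receptor gene HRH1 were 1.48-fold (1.07 to 2.05) and 1.22-fold (1.09 to 1.36) lower with 5% pdRBC. Of the other P2X receptor genes in the list, P2RX1, P2RX5, P2RX6 and P2RX7 had under 100 UMIs.

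Around the G proteins, 14 of 22 other subunit genes were measured, with 1 at least 1.2-fold higher (GNAI1, 13.8 against 11.2 CPM) and 1 lower (GNB5, 1.23-fold). Of 21 measured Gq effectors and regulators, RGS2, an inhibitor of Gq, was 1.53-fold (1.12 to 2.12) higher and PLCB4, a Gq-activated phospholipase, stood at 7.01 CPM with 5% pdRBC and 5.70 CPM with hRBC. PRKCA, protein kinase C alpha, was 1.38-fold (1.30 to 1.47) lower. Of 11 measured genes of store-operated entry, pumps and calmodulin, 1 was at least 1.2-fold higher (ATP2B1, a plasma membrane calcium pump, at 80.5 against 66.1 CPM) and 0 lower. The calcineurin and NFAT list had 10 measured genes, with 2 higher and 2 lower. NFATC2, a calcium-regulated transcription factor, was 2.08-fold (1.80 to 2.42) higher and RCAN1, an inhibitor of calcineurin that calcium signalling induces, 1.37-fold (1.17 to 1.61) higher. NFATC4 was 1.25-fold (1.03 to 1.53) lower, and RCAN3 had 3.35 CPM with 5% pdRBC and 4.20 CPM with hRBC.

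Among 13 measured genes of the junctional flow sensor and caveolae, FLT4 (1.39-fold (1.06 to 1.84)) and NRP1 (1.25-fold (1.17 to 1.33)), both receptors or co-receptors of vascular growth factors, were higher with 5% pdRBC and 0 were lower. Of 8 measured Piezo regulators and cilium genes, 0 passed 1.2-fold in either direction. The median log2 folds of these lists ran from -0.02 for the purinergic and receptor list to 0.10 for calcineurin and NFAT, beside 0.02 over all measured genes. In the immediate early list itself 12 of 15 genes were measured, with a median log2 fold of 1.15. Of these, 10 were at least 1.2-fold higher and 0 lower, beside 10.4% and 7.43% of all measured genes.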

How the data were processed

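The authors deposited raw UMI counts per gene and barcode for 2 libraries, made by Cell Ranger 7.0.0, per the file headers, on GRCh38, per the submitters' processing notes. The sources used here give no annotation release, cell calling setting or use of strand. Kept cells had at least 1000 UMIs, at least 500 genes and no more than 20% mitochondrial UMIs. UMIs were summed per library and divided by the total (CPM), with 0.5 UMIs added to each sum for folds. Folds have Clopper-Pearson 95% intervals from the split of UMIs, CPM values exact Poisson and shares exact binomial ones. A count of 0 allows up to 3. Thinning drew 2000 UMIs per cell without replacement. Clusters came from Scanpy 1.11.5 with Leiden (python-igraph 0.11.9, resolution 0.5, 2000 variable genes, 30 components, 15 neighbours), without the members and without integration. Doublets were not called. TMM factors came from edgeR 4.0.16. Positions are from GENCODE 29 and sequences from RefSeq (GRCh38.p14). On Poisson counts simulated for 11043 genes, 100% of 200 genes changed 2-fold passed 1.5-fold, and 95.0% of intervals held the true value. The intervals assume this same model, so this checks the calculation only. Spread between cells and between cultures was not simulated. The members and lists were chosen with earlier results of these data known. Named beside the members are the genes of each other list past 1.2-fold, at most the 3 largest per direction, and the 3 genes most like each member of at least 500 UMIs. PIEZO2, the sparse P2X genes, FOSL2, FOSB, IER2, ATF3, KCNJ2-AS1, CTU2, TSC2 and RGS5 were named after their values were seen. Alternatives were other cell filters, depths, weights, TMM scaling and cell classes.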

Additional observations from a re-analysis of the deposited data

Results flagged for a closer look

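In 4 genes the highest class of immediate early gene UMIs differed from the lowest in opposite directions in the 2 libraries, and the difference between the libraries was not tested. PIEZO1 had a log2 fold of -0.30 with 5% pdRBC and 0.21 with hRBC. P2RX4 had -0.22 with 5% pdRBC and 0.46 with hRBC, where it rests on 26 and 49 UMIs. GNAQ had -0.29 with 5% pdRBC and 0.18 with hRBC. GNA11 had 0.12 with 5% pdRBC and -0.14 with hRBC. All 4 hRBC intervals hold equality, as do those of P2RX4 and GNA11 with 5% pdRBC. Among cells of 5000 or more UMIs ranked at that depth, the hRBC values were -0.11 for P2RX4 and 0.13 for GNA11, no longer opposite to those with 5% pdRBC (-0.20 and 0.000505), and 0.02 for PIEZO1 and 0.05 for GNAQ, beside -0.38 and -0.49 with 5% pdRBC.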

How the results depend on the processing

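No paired analysis was possible because each group has 1 library, and for the same reason no library could be left out in turn. Of 88 alternative values of the members' folds between the libraries, 82 stayed within the counting interval, as did 57 of 64 for the immediate early gene relation. Among those 64, the hRBC values with classes cut at each library's own quartiles could not move. The hRBC classes were the same under both cuts. Without the class highest in immediate early genes the log2 fold of KCNJ2 was -0.45, against 0.67 over all kept cells, and that of PIEZO1 was 0.40. In that setting cells under 2000 UMIs, which were not classed and are mostly hRBC cells, stayed in. With every cell weighted equally PKD2 had 0.26 and GNA11 0.31. Thinned to 2000 UMIs, TRPV4 had 0.24 and KCNJ2 0.21. Thinned to 1000 UMIs, the log2 ratio of the shares was -0.10 for PKD1 and -0.49 for TRPV4, against 0.34 and 0.17 at 2000 UMIs. For the highest over the lowest class, levels from thinned UMIs gave -2.21 for TRPV4, 1.72 for KCNJ2 and 0.40 for GNA11 with 5% pdRBC, and -1.24 for TRPV4 and -0.39 for GNA11 with hRBC. Cells of 5000 or more UMIs ranked at that depth gave -0.49 for GNAQ with 5% pdRBC, and -0.11 for P2RX4 and 0.13 for GNA11 with hRBC. The cause of these shifts was not tested. With a minimum of 20 UMIs, 2243 genes passed 1.2-fold upward and 1723 downward, and 677 and 456 passed 1.5-fold. With a minimum of 500 UMIs these counts were 442, 327, 48 and 36, against 1144, 821, 171 and 121 at 100 UMIs. Depth limits TRPV4, KCNJ2 and P2RX4 most, with 81 to 243 UMIs in a library.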

Other observations

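In the small cluster 8, led by SPATA5 and GLIS3, with a median of 2286 UMIs and 7.42% mitochondrial UMIs, GNAQ stood at 494 CPM (386 to 624) in 47 5% pdRBC cells and 491 CPM (370 to 639) in 46 hRBC cells. PIEZO1 stood there at 216 CPM (147 to 306) with 5% pdRBC and 161 CPM (95.2 to 254) with hRBC. GNAQ was thus above its level over all kept cells in both libraries, and was not alone in this. PKD1 stood at 90.5 CPM (48.2 to 155) with 5% pdRBC and 35.7 CPM (9.73 to 91.4) with hRBC. PKD2 stood at 62.7 CPM (28.7 to 119) with 5% pdRBC and 62.5 CPM (25.1 to 129) with hRBC. TRPV4 stood at 41.8 CPM (15.3 to 90.9) and 26.8 CPM (5.52 to 78.2). The values of PKD1, PKD2 and TRPV4 were also above those over all kept cells, but rest on 3 to 13 UMIs each. Both PKD2 intervals, and the hRBC intervals of PKD1 and TRPV4, hold the level over all kept cells of the same library. GNA11 stood at 69.6 CPM (33.4 to 128) with 5% pdRBC and 71.4 CPM (30.8 to 141) with hRBC in the same cluster. The part of depth and of mitochondrial share in these levels was not tested.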
